A study of Mus musculus with 10 samples.

Results

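Of 10 arrays of abdominal aorta RNA, 4 carried a high signal of Npy, the gene of neuropeptide Y, a cotransmitter of sympathetic neurons, and they are compared here with the other 6. The 4 arrays, called Npy-high below, were chosen by the measured level of the 1 Npy probe, as those above 5 on a log2 scale of intensity. They are the suprarenal arrays of pools 1 and 11 and the infrarenal arrays of pools 8 and 12. The tissue came from male ApoE-/- mice of 14 weeks, which lack apolipoprotein E and are a widely used model of atherosclerosis. All groups carry this deletion, and no mouse with intact Apoe was analysed here. The aortas of 2 mice were pooled in each of 5 pools (1, 6, 8, 11 and 12), and every pool gave 1 array of the infrarenal and 1 of the suprarenal section. Each array is therefore a mixture of 2 animals and of every cell type in the excised segment. In such bulk RNA, more cells of a type and more RNA per cell cannot be told apart.

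The study set out to compare the regions. The Npy split crosses that design, since each region holds 2 Npy-high arrays and 3 others, and pools 1, 8, 11 and 12 each hold 1 Npy-high array while pool 6 holds none. Npy stood at 6.33 on suprarenal 1, 5.54 on suprarenal 11, 5.60 on infrarenal 8 and 5.19 on infrarenal 12. Among the others it stood at 3.22 on suprarenal 6, 2.67 on infrarenal 6, 1.69 on infrarenal 11, 1.15 on infrarenal 1, 0.51 on suprarenal 8 and 0.0032 on suprarenal 12. The array just inside the limit was thus at 5.19 and the one just outside at 3.22, and both arrays of pool 6 were the highest of the 6 others. Npy chose the arrays and is left out of the fit. Th and Dbh, which label the split together with Npy, stay in the fit and in its counts, and nothing is read from whether they passed.

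Sympathetic neurons and the chromaffin cells of the adrenal medulla arise from the same neural crest lineage and make catecholamines by the same first steps. Tyrosine hydroxylase (Th) forms L-DOPA, and Ddc converts it to dopamine. The vesicular transporter Slc18a2 packs dopamine into vesicles, where dopamine beta-hydroxylase (Dbh) forms noradrenaline. The plasma membrane transporter Slc6a2 takes released noradrenaline back up. Chromaffin cells that make adrenaline add Pnmt and carry the second vesicular transporter, Slc18a1. Postganglionic sympathetic fibres run in the adventitia of arteries, while their cell bodies, and with them most of their mRNA, lie in ganglia beside the abdominal aorta, as the adrenal glands do.

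Promoter sequences of 3 genes that were higher on the Npy-high arrays are printed to show the cAMP response element, a site that CREB family proteins bind, at the genes of the transmitter enzyme, of its vesicular transporter and of a cotransmitter peptide. They come from RefSeq (GRCm38.p6), run 5′ to 3′ from 250 bases before to 50 bases after the start of the gene, and the capitals mark the motif TGACGTCA, which reads the same on both strands. Th lies on the minus strand at chr7:142899946-142900245, with the motif starting at position -45 from the start site. Slc18a2 lies on the plus strand at chr19:59260628-59260927, with the motif at -4, and Cartpt on the minus strand at chr13:99900634-99900933, with the motif at -112.
Th: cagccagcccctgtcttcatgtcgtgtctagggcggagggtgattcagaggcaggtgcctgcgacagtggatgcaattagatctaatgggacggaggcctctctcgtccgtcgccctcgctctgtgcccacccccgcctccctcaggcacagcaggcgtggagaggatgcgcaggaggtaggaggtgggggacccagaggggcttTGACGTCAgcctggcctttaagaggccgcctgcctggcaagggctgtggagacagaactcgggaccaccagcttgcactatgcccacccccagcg
Slc18a2: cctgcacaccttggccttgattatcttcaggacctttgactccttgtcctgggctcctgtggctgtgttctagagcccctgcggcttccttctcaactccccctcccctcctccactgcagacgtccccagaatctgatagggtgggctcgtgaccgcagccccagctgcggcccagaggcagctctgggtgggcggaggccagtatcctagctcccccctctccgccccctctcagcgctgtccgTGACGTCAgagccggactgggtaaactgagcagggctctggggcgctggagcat
Cartpt: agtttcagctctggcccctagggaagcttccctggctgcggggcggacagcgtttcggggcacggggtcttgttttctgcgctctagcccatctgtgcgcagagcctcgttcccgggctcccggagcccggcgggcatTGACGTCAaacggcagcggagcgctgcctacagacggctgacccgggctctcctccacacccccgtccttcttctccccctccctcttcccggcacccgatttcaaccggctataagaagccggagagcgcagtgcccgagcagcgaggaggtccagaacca
The motif was found in 7 of the 105 genes called higher that have a promoter in the table (6.67%), namely Th, Slc18a2, Cartpt, Celf6, Klc1, Mapk10 and Olfm2, of which Slc18a2, Klc1, Mapk10 and Olfm2 lost their call in a fit with the pool as a block. It was found in 3 of 37 genes called lower (8.11%), in 406 of 14342 tested genes (2.83%) and in 588 of all 32851 promoters of the table (1.79%). Mapk10 has 3 probes, and beside the one read here (0.96) the others differed by 0.55 and -0.69. A match describes these letters only and is not evidence of a bound site.

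All arrays had been scaled to a median intensity close to 1, so a log2 level of 0 is about the middle of an array, and pairs of arrays correlated at 0.962 to 0.975 over all probes. Apoe itself was dim on every array, at -5.09 to -2.57, where the lowest value allowed is -5.17. The RNA put into the labelling reaction was 0.54, 0.47, 0.34 and 0.51 µg for suprarenal 1, suprarenal 11, infrarenal 8 and infrarenal 12. It was 0.44 µg for infrarenal 1 and 0.35 µg for the 5 remaining arrays. Input on 3 of the 4 Npy-high arrays was thus above that of every other array, while infrarenal 8 was Npy-high with the lowest input of all.

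Of 135 genes higher on the Npy-high arrays, 56 were on lists of neural genes, and genes of catecholamine synthesis and uptake stood among them with differences of up to 11.4-fold. A fit across all probes with region as a covariate (limma) called 193 of 36060 probes higher (0.535%) and 69 lower (0.191%) at an adjusted p under 0.05. Read as 1 probe per gene, 135 of 17990 genes were called higher (0.75%) and 45 lower (0.25%). All 4 Npy-high arrays lay above all 6 others for 294 genes (1.63%) and below them for 230 (1.28%). Because Npy chose the arrays, a count of neural genes in this contrast describes which genes moved with Npy. It is no independent evidence of a neural tissue on these arrays. The lists were also chosen with earlier results of these data known, so the shares called on them partly reflect that choice. Of 243 genes tested on 12 lists of neural, glial and sympathoadrenal genes, 56 were called higher (23.0%) and 0 lower, 183 had a positive difference and the median difference was 0.26 on the log2 scale, against -0.02 over all genes. On 16 lists of other cell types and processes, 2 of 176 genes were called, Avil and Adgre1. These 16 include the lists of sensory neuron markers, which holds Avil, and of neurotrophic ligands.

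**Figure D1:**
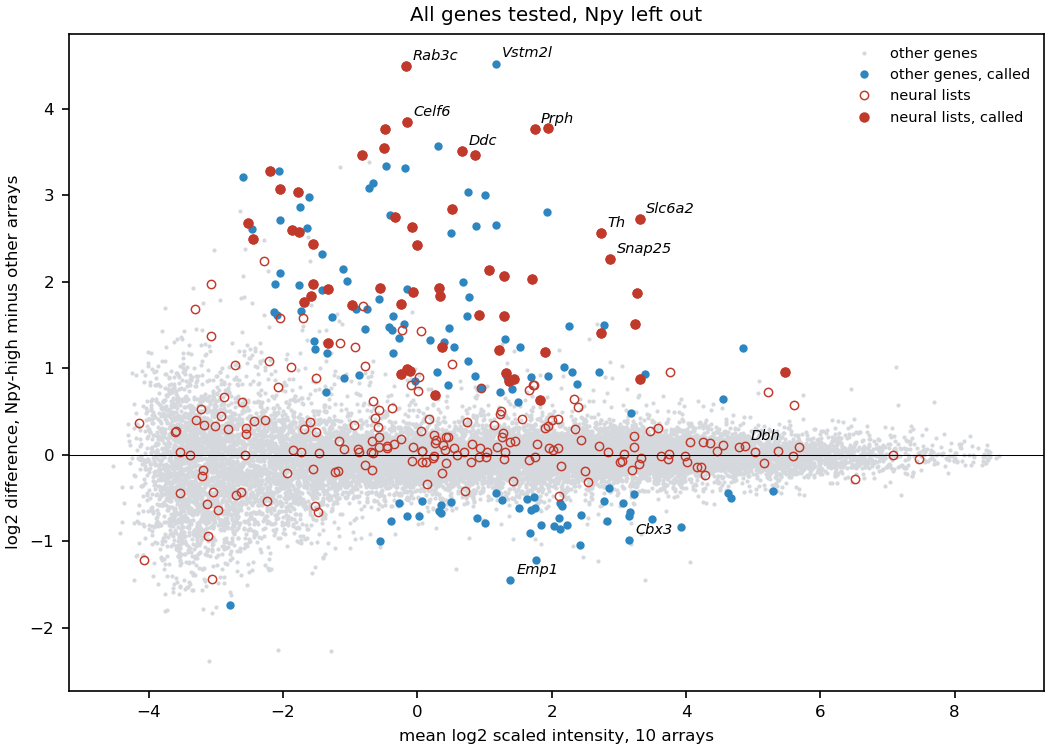
Each point is 1 of the 17990 genes tested, with its mean log2 intensity over 10 arrays on the horizontal axis and the log2 difference between the Npy-high and the other arrays on the vertical axis; red marks genes of the 12 neural lists, blue marks other genes called, and filled points passed the test. The called genes reach from -1.73 (Ftmt) to 4.52 (Vstm2l), the largest differences lie at middle and low intensity, and Dbh lies near 0.

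RNA input moved with the split. With input as a covariate, 0 probes were called by limma (smallest adjusted p = 0.0521, with 2355 probes at an unadjusted p under 0.05). The 193 and 69 probes were chosen on these same arrays, so their signs are largely fixed by that choice. With input in the fit all of them kept their sign, and the median difference of the 135 genes was 1.47 in place of 1.74. The standard errors grew by a median factor of 1.38 in that fit, and the part of input in the differences was not tested. With the pool as a block, which compares the sections of the same animals, 96 probes were called higher and 10 lower, and 35 genes of the neural lists were called in place of 56. Without pool 12 the neural count was 24, and without the suprarenal array of pool 1 it was 38.

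In the catecholamine pathway, 6 of 14 genes were called higher, 13 had a positive difference and the median was 0.53. The 6 include Th, a gene of the label. Th read 5.10 on suprarenal 1, 4.09 on suprarenal 11, 4.02 on infrarenal 8 and 3.89 on infrarenal 12, against 2.09, 2.07, 1.66, 1.56, 1.53 and 1.37 on the others, from suprarenal 6, infrarenal 6, infrarenal 11, infrarenal 1, suprarenal 8 and suprarenal 12. The sets did not overlap, and their means differed by 2.56 ± 0.23 (SE; 5.91-fold). Suprarenal 1 was the highest array, and the 2 arrays of pool 6 led the others, as they did for Npy.

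Ddc, the decarboxylase, read 3.79, 2.43, 2.54 and 2.32 on suprarenal 1, suprarenal 11, infrarenal 8 and infrarenal 12, and 0.16, 0.07, -0.81, -0.83, -1.45 and -1.56 on suprarenal 6, infrarenal 6, infrarenal 11, infrarenal 1, suprarenal 8 and suprarenal 12. Its difference of 3.51 ± 0.39 (SE; 11.4-fold) was the largest of the pathway. Slc6a2, the noradrenaline transporter of the neuronal membrane, read 5.93, 4.72, 4.18 and 4.97 in the same order of Npy-high arrays and 1.57 to 3.13 (median 2.04) on the others, a difference of 2.73 ± 0.36 (SE). Its highest values among the others were again those of pool 6, 3.13 on infrarenal 6 and 2.91 on suprarenal 6.

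Slc18a2, the vesicular transporter, stood at 3.05 on suprarenal 1 and at 1.92 to 2.06 on the other Npy-high arrays, against 0.35 to 0.81 (median 0.73) elsewhere, a difference of 1.61 ± 0.20 (SE) whose call was lost with the pool as a block. The other called members were Maoa (0.88), the monoamine oxidase that breaks noradrenaline down, and Gch1 (0.85), which starts the synthesis of the cofactor of tyrosine hydroxylase, and both lost their call with the block.

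Dbh, the third marker of the label, did not follow it. Its probe read 4.99, 5.13, 4.85 and 4.76 on suprarenal 1, suprarenal 11, infrarenal 8 and infrarenal 12, and 4.80, 4.67, 4.83, 4.83, 5.03 and 4.84 on infrarenal 1, infrarenal 6, infrarenal 11, suprarenal 6, suprarenal 8 and suprarenal 12. The sets overlapped and differed by 0.10 ± 0.08 (SE). Whether this single probe measures Dbh was not tested. The arrays are named here after Npy, which chose them.

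The genes that set adrenaline-making chromaffin cells apart were not called. Pnmt read -0.18 to 0.24 on the Npy-high arrays and -0.42 to 0.08 on the others (difference 0.09 ± 0.13, SE). Slc18a1 read -0.61 to 0.01 and -1.02 to -0.45 (0.51 ± 0.16, SE), with infrarenal 8 inside the range of the others. Penk, the proenkephalin gene that chromaffin cells express strongly, read 5.47 to 5.68 and 5.33 to 5.71 (-0.01 ± 0.09, SE). All 3 genes overlapped between the sets. Of the adrenal cortex list, which holds the steroid enzymes of the tissue around the medulla, 0 of 11 genes were called and the median difference was 0.07. Its largest members were Cyp21a1 (1.19), at -2.37 on average on the Npy-high arrays and thus far below the array median, and Cyp11a1 (-0.71). The list's mean level was -0.32 to 0.16 on the Npy-high arrays and -0.43 to 0.20 on the others.

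**Figure D2:**
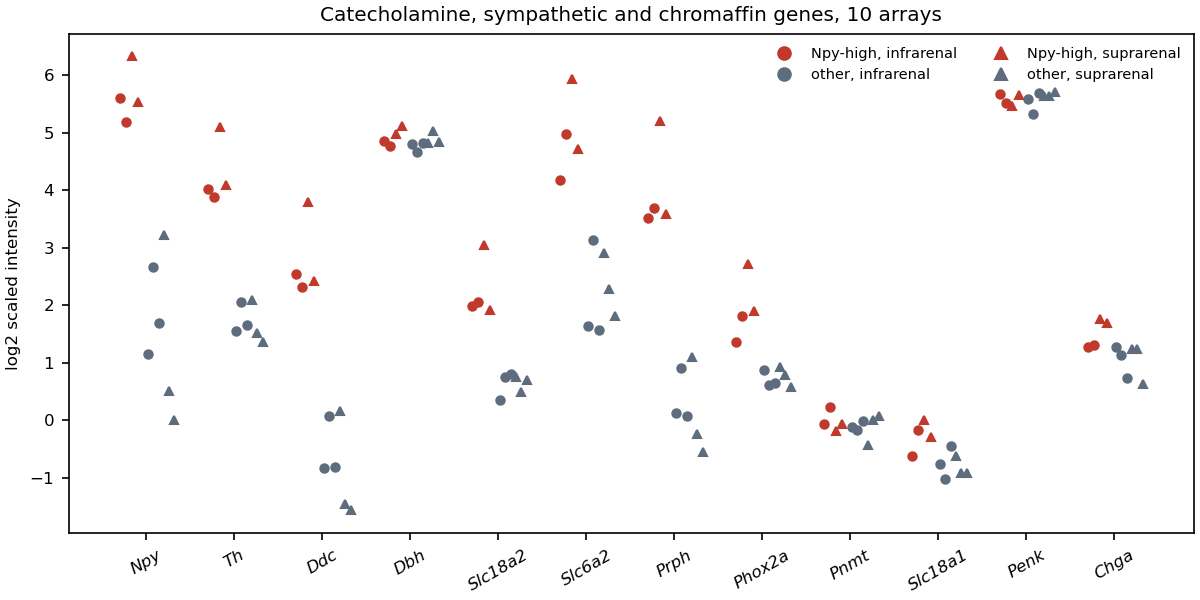
Log2 scaled intensity (vertical axis) of 12 catecholamine, sympathetic and chromaffin genes on each of 10 arrays, red for the 4 Npy-high arrays and grey for the 6 others, circles for infrarenal and triangles for suprarenal sections. Npy, Th, Ddc, Slc18a2, Slc6a2, Prph and Phox2a separate the sets, and Chga does so by a narrow margin (1.284 against 1.277). Dbh (4.67 to 5.13 over all arrays), Pnmt, Slc18a1 and Penk do not.

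Secretory granule genes gave 7 calls among 16 and a median of 0.95. Resp18, a granule protein of endocrine and neuronal cells, was at -0.71 to 0.77 on the Npy-high arrays and at -4.37 to -2.66 on the others (median -3.59; difference 3.28 ± 0.41, SE). Syt4 (2.63), Scg5 (2.43), Ptprn2 (2.14) and Scg3 (2.06) followed, of which Scg5 encodes the chaperone of prohormone convertase 2 and Ptprn2 a membrane protein of dense-core vesicles. A dimmer Ptprn2 probe read 0.02. Chga and Chgb, the granins by which chromaffin and neuroendocrine tissue is usually recognised, were not called. Chga read 1.284 to 1.76 on the Npy-high arrays and 0.64 to 1.277 on the others (0.46 ± 0.16, SE). Its sets were thus apart by a narrow margin. Chgb, dim throughout, differed by 1.37 ± 0.60 (SE), and its sets overlapped. Cpe, which trims prohormones and is made by many cells, differed by -0.05.

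Among neuropeptides other than Npy, 1 of 13 was called, Cartpt, whose product is a cotransmitter of some sympathetic neurons. It was at -1.31 to 0.12 on the Npy-high arrays and at -3.37 to -1.67 on the others, a difference of 1.84 ± 0.36 (SE). Unlike most called genes it was highest on infrarenal 12 (0.12) and infrarenal 8 (0.03), with suprarenal 1 at -0.79. Gal (1.58), Sst (0.33) and Vip (0.26) were not called and were dim on all arrays. Of the 13 genes, 8 had a positive and 5 a negative difference, down to -1.22 (median 0.16).

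Of 15 sympathoadrenal transcription factors 3 were called, with a list median of 0.37. Phox2a, a homeobox factor of noradrenergic neurons, read 2.72, 1.90, 1.37 and 1.82 on suprarenal 1, suprarenal 11, infrarenal 8 and infrarenal 12, against 0.58 to 0.92 (median 0.72) on the others. The sets were apart, by 1.21 ± 0.19 (SE). Hmx1, another homeobox factor of sympathetic neurons, differed by 3.03 and Isl1 by 1.25, both lost with the block. Gata3 (0.51), Hand2 (0.52) and Tfap2b (0.37) were not called. Of the 15 factors, 10 had a positive and 5 a negative difference, down to -0.67.

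The neurotrophin receptor list gave 0 calls among 12 (median 0.02). Ngfr, the p75 receptor of sympathetic neurons and Schwann cells, lay at -1.63 to 0.32 on the Npy-high arrays and at -4.71 to -2.08 on the others. Those sets did not overlap, but the difference of 2.23 ± 0.52 (SE) did not pass the test. Of the genes for their ligands, 0 of 4 were called. Ganglionic neurons receive acetylcholine through nicotinic receptors, and 2 of 10 genes of that list were called. Chrnb4, a subunit of the ganglionic receptor, read 2.73, 1.52, 1.19 and 1.70 on suprarenal 1, suprarenal 11, infrarenal 8 and infrarenal 12, against -3.53 to -0.76 on the others (median -1.65; difference 3.76 ± 0.55, SE), and its other probes differed by 2.80 and 0.0055. Ache, the esterase that ends the signal, differed by 1.91, a call lost with the block. The partner subunit Chrna3 (0.74) and the cholinergic neuron genes Chat (-1.44) and Slc18a3 (-0.25) were not called.

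The neuronal cytoskeleton list had the most calls, 13 of 29, with 26 positive differences and a median of 0.74. Prph encodes peripherin, the intermediate filament of peripheral neurons. It read 5.21, 3.59, 3.52 and 3.70 on suprarenal 1, suprarenal 11, infrarenal 8 and infrarenal 12, and 1.10, 0.91, 0.14, 0.07, -0.23 and -0.55 on suprarenal 6, infrarenal 6, infrarenal 1, infrarenal 11, suprarenal 8 and suprarenal 12. The gap between the sets was wide (3.76 ± 0.39, SE; 13.6-fold), and pool 6 again led the others. Stmn3, a microtubule regulator, differed by 3.78, and by 3.32 on its other probe. Tagln3 (2.74) and the neurofilament genes Nefm (2.68) and Nefl (2.58) followed, Nefm without a call under the block.

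Pan-neuronal genes gave 9 calls among 30 (median 0.75) and the synaptic vesicle list 8 of 31 (median 0.35). Celf6, an RNA-binding protein, differed by 3.84 ± 0.45 (SE; 14.3-fold), Elavl4, the neuronal HuD protein, by 3.07 (not called with the block) and Gng3, a neuronal G protein subunit, by 2.85. Rab3c, a vesicle GTPase, had the largest difference of any listed gene, 4.49 ± 0.61 (SE; 22.5-fold), with 2.16 to 3.46 on the Npy-high arrays and -4.13 to -0.60 (median -1.57) on the others, while a dimmer probe of it differed by 1.11. Snap25, a SNARE protein of exocytosis, read 5.13, 3.92, 3.97 and 3.91 on suprarenal 1, suprarenal 11, infrarenal 8 and infrarenal 12 and 1.73 to 2.38 on the others (median 1.80; difference 2.26 ± 0.24, SE). The 3 Npy-high arrays other than suprarenal 1 lay close together for this gene.

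Ion channels and transmitter receptors gave 2 calls among 29 genes (median 0.03), and axon guidance and adhesion genes 2 among 24 (median 0.06). Htr3a, the subunit of the serotonin-gated channel, differed by 3.55 ± 0.44 (SE) and Astn1, a neuronal adhesion protein, by 3.47 ± 0.54 (SE). Scn3b (1.29) and L1cam (0.69) were also called and were lost with the block.

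Glial genes were read from a list of their own. Of 20 Schwann and satellite glia genes 3 were called and 17 had a positive difference (median 0.22). Fabp7, a fatty acid binding protein of satellite and immature Schwann cells, read 2.71, 2.88, 3.83 and 2.31 on suprarenal 1, suprarenal 11, infrarenal 8 and infrarenal 12 and 0.23 to 1.89 (median 0.84) on the others, a difference of 2.03 ± 0.35 (SE). It was highest on infrarenal 8 and not on suprarenal 1. Sox10 (0.88) and Erbb3 (0.63), the factor and the receptor of the Schwann lineage, were called but lost with the block. The myelin genes Mbp (0.81), Mal (0.80), Mag (0.32) and Pmp22 (-0.00023) were not called.

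Of 11 sensory neuron markers 1 was called, Avil, the actin regulator advillin, at 3.21 to 4.50 on the Npy-high arrays and 0.13 to 1.41 (median 0.79) on the others (2.81 ± 0.25, SE). The channel genes Scn10a (-0.01) and Trpv1 (-0.13) of that list were not called.

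**Figure D3:**
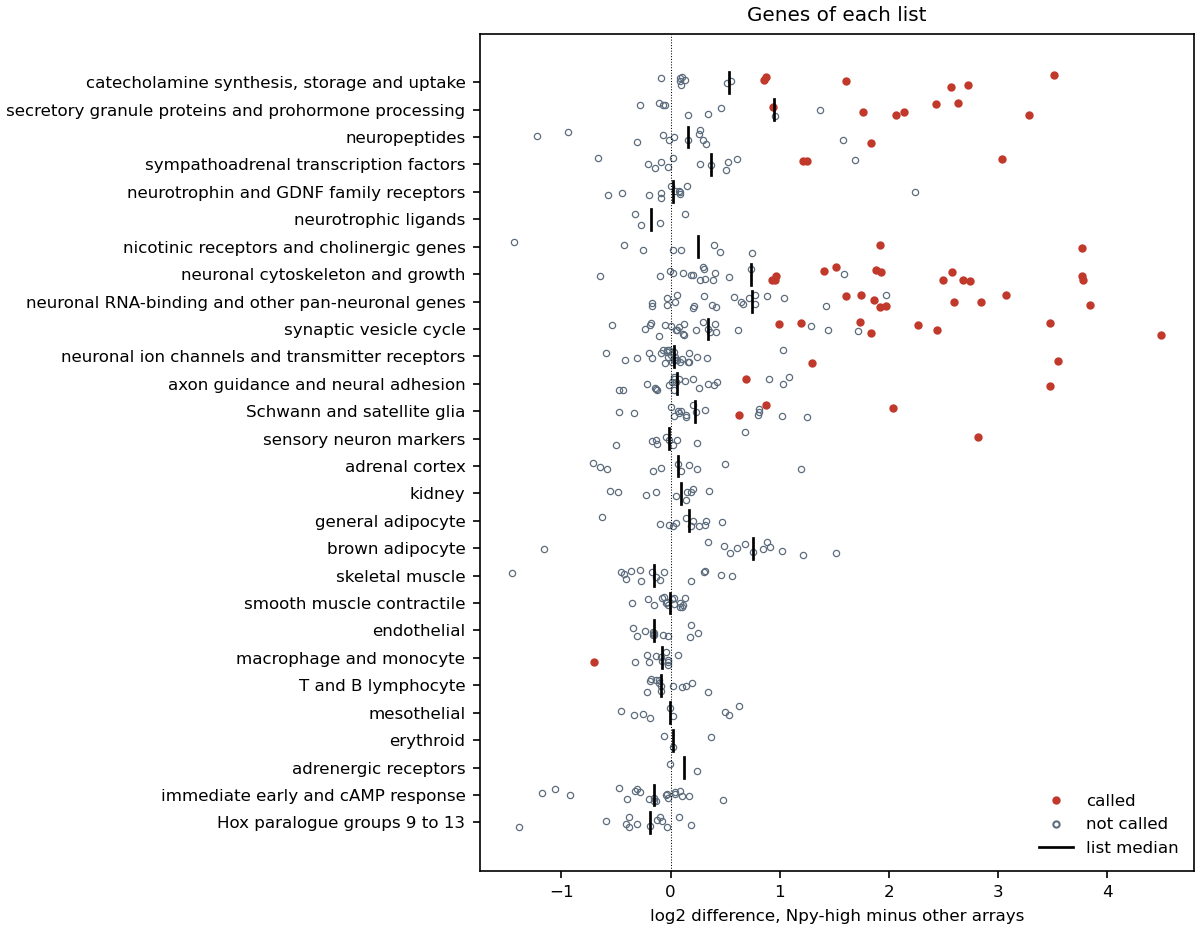
Log2 difference between the Npy-high and the other arrays (horizontal axis) for every tested gene of 28 lists (vertical axis), filled red where the gene was called, with a black bar at each list's median. Calls lie in the neural and glial lists apart from Avil (2.81) and Adgre1 (-0.70), and the brown adipocyte list has a median of 0.76 without a call.

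Lists of other tissues in or beside the wall were read to see what else moved with the split. For smooth muscle, the main cell of the media, 0 of 16 genes were called (median -0.01), and the list's mean level was 5.77 to 5.86 on the Npy-high arrays and 5.66 to 5.99 on the others. Endothelial (0 of 12), kidney (0 of 10), mesothelial (0 of 9), lymphocyte (0 of 13) and skeletal muscle genes (0 of 16) gave no call either. Mb, the myoglobin gene, was not called, but passed with the pool as a block, at -2.33 (limma adjusted p = 0.00932). Brown adipocyte genes gave 0 calls of 13, but 12 were positive, Ucp1, the uncoupling protein that defines these cells, by 1.02. Their median of 0.76 was above those of the catecholamine (0.53), cytoskeleton (0.74) and pan-neuronal lists (0.75), and below that of the granule list (0.95). The mean level of the brown adipocyte list was 3.20 to 4.45 on the Npy-high arrays and 1.84 to 4.18 on the others. The sets thus overlapped, and the part of brown fat in the differences was not tested. The general adipocyte (0 of 12), erythroid (0 of 3), adrenergic receptor (0 of 2), immediate early (0 of 21) and Hox lists (0 of 13) gave no call, with medians of 0.17, 0.03, 0.12, -0.15 and -0.19.

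**Figure D4:**
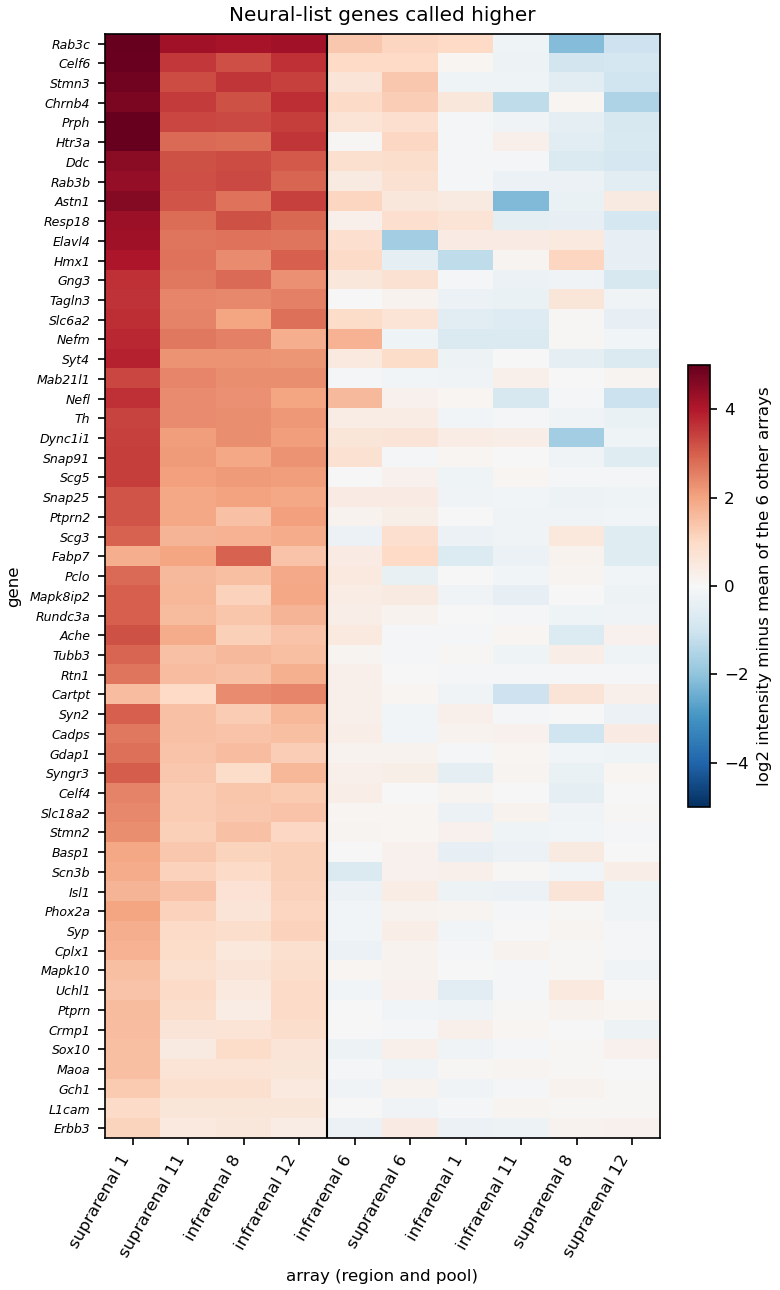
Log2 intensity minus the mean of the 6 other arrays (colour, which ends at 5 in either direction) for the 56 neural-list genes called higher (vertical axis, sorted by difference) on 10 arrays (horizontal axis, Npy-high arrays left of the line). Suprarenal 1 is the darkest column for nearly every gene, while Fabp7 is highest on infrarenal 8 and Cartpt on infrarenal 12.

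The order of the arrays within the sets was not used to choose the arrays. The 135 genes called higher were chosen on these same arrays, so counts among them are no independent observations of that order. Suprarenal 1, which had the highest Npy and the highest RNA input, was the highest of the 4 Npy-high arrays for 131 of the 135 genes called higher (97.0%), against 4903 of 17826 genes with values on all arrays (27.5%). Both arrays of pool 6 were the highest of the 6 others for 42 of the 135 (31.1%), against 913 of those 17826 (5.12%). For 87 of the 135 the mean of the others was below 0 and so below the middle of the array, against 6665 of the 17826.

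Within the pools, where both sections come from the same 2 animals, the Npy-high section was higher in all 4 pools for 132 of the 135 genes and for 1325 of the 17826. The 135 were chosen on these same arrays, so their count is largely fixed by that choice. The median difference was 2.72 in pool 1, 1.33 in pool 8, 1.45 in pool 11 and 1.62 in pool 12. In pool 6, which has no Npy-high array, infrarenal minus suprarenal was -0.07. Their median difference was 1.40 between infrarenal and 2.06 between suprarenal arrays, both of which entered the choice of the genes. The interaction of region and split gave 0 called probes (limma; 1141 at an unadjusted p under 0.05), which does not show that the regions respond alike.

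**Figure D5:**
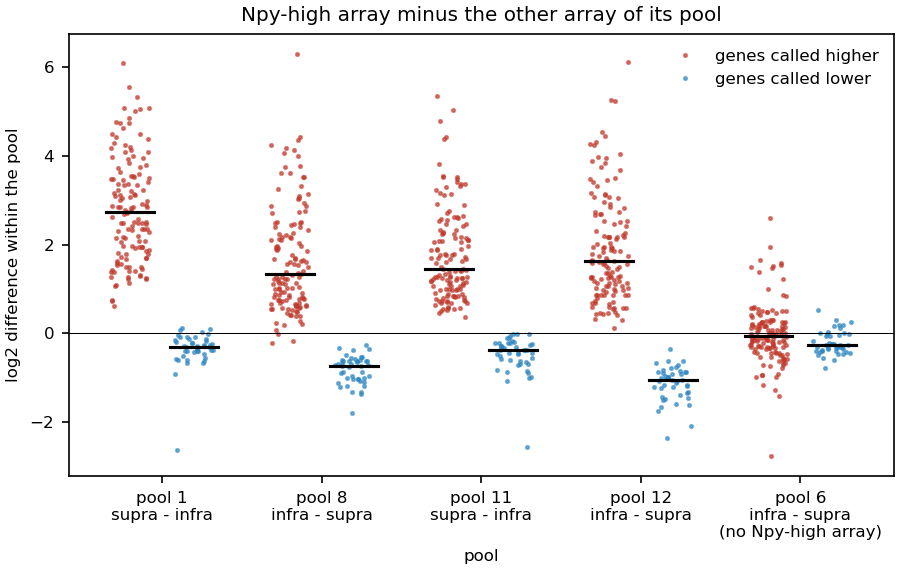
Log2 difference within each pool (vertical axis), Npy-high section minus the other section for pools 1, 8, 11 and 12 and infrarenal minus suprarenal for pool 6; points are the 135 genes called higher (red) and the 45 called lower (blue), and bars are medians. The red medians lie at 2.72, 1.33, 1.45 and 1.62 in the 4 pools and at -0.07 in pool 6, and the blue ones at -0.30, -0.74, -0.39, -1.06 and -0.27.

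The 45 genes called lower had a median difference of -0.68, and 41 were lower in the Npy-high section of all 4 pools, against 1946 of the 17826 genes. These genes too were chosen on the same arrays. Emp1, an epithelial membrane protein, read 0.76, 0.52, 0.74 and 0.03 on suprarenal 1, suprarenal 11, infrarenal 8 and infrarenal 12 and 1.23, 1.78, 1.52, 2.33, 2.52 and 2.39 on infrarenal 1, infrarenal 6, infrarenal 11, suprarenal 6, suprarenal 8 and suprarenal 12. The sets did not overlap (-1.45 ± 0.18, SE; limma adjusted p = 0.00355, and 0.0134 with the block). Cbx3, a heterochromatin protein, differed by -0.99 ± 0.09 (SE) and Msn, the membrane-to-actin linker moesin, by -0.81 ± 0.10 (SE), and both kept their call with the block. Cavin1 (-1.21; -0.05 on another probe), a coat protein of caveolae, and Gja1 (-1.04), the gap junction protein of many vascular cells, lost theirs, with limma adjusted p = 0.0883 and 0.0514. So did Ftmt (-1.73), mitochondrial ferritin, which was dim throughout, with infrarenal 8 inside the range of the others. Of 12 macrophage genes 1 was called, Adgre1, a classical macrophage surface marker, at -0.72 to -0.21 on the Npy-high arrays and -0.13 to 0.88 (median 0.19) on the others (-0.70 ± 0.13, SE; limma adjusted p = 0.0374, and 0.147 with the block). The other macrophage genes, among them C1qa (-0.04) and Cd14 (-0.21), were not called, but 11 of the 12 had a negative difference (list median -0.08). The list's mean level overlapped between the sets, at 3.35 to 3.47 against 3.24 to 3.84.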

How the data were processed

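The deposited table holds 1-colour array intensity values, scaled by the authors to an array median of about 1. Scaling method, background correction and genome build: not given in the sources used here. Values under 0.0278, the 1st percentile, were raised to it and log2 taken; 36061 of 36227 probes were kept. GEO's platform table gave 21615 probes 1 symbol, 681 several and 13931 none, and 21487 were updated through Entrez IDs. Each gene was read by its probe of highest mean. limma 3.58.1 (lmFit, eBayes with trend, R 4.3.3) fitted region and split over 36060 probes with Benjamini-Hochberg adjustment. The script was tested on simulated data. It recovered 26% of changes of 0.5 log2, 54% of 1, 72% of 2 and 92% of 3, with 7 false calls. A gene that was not called may therefore still differ. Replicates are pools of 2 mice. The pools pair the arrays because both sections come from the same animals; correlations of the deviations were 0.045, 0.0064, -0.033, -0.054 and -0.093 for pools 1, 6, 8, 11 and 12. The number of arrays limits the precision.

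Members and lists were chosen with earlier results of these data known. Named genes were Npy and 12 set genes, up to 5 called members of largest difference per list (the 2 of smallest p where none passed), and the 12 largest differences on each side; 1 of the set genes is not reported here, and further list members and Klc1 and Olfm2 were named after their values were seen. The lists held 491 entries, of which 422 matched. Alternatives were another normalization, an offset in place of the floor, no dim probes, no trend, no region, the Npy level, averaged probes, RNA input, the pool block and arrays left out.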

Additional observations from a re-analysis of the deposited data

Results flagged for a closer look

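Of 241 sets of 4 or 6 arrays checked, 29 held 1 array far from the rest, where about 12 would arise by chance. Many of the genes were chosen on these same arrays and vary together, so this comparison is no test. In most of them it was suprarenal 1, high among the Npy-high arrays. It stood at 5.10 for Th (the others at 3.89 to 4.09), 3.05 for Slc18a2, 3.79 for Ddc, 4.46 for Maoa, 2.70 for Syt4, 2.46 for Scg5 and 3.41 for Scg3. It stood at 5.21 for Prph, 2.19 for Tagln3, 0.94 for Elavl4, 0.43 for Mab21l1, 3.46 for Rab3c, 5.13 for Snap25, 0.96 for L1cam and 4.50 for Avil. For Tmem130 it was at 3.40, for Spock3 at 2.83 and for the erythroid gene Slc4a1 at -0.39 (the others at -2.95 to -2.61). The mean levels of the granule (2.50), cytoskeleton (1.31) and pan-neuronal lists (1.65) on this array were also apart.

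Among the 6 other arrays, infrarenal 6 was low for Penk (5.33) and high for Nefm (-1.85), and infrarenal 1 was low for Atrx (-0.96) and Cap1 (3.61). Suprarenal 6 was low for Umod (-1.93) and for the mean of the neurotrophic ligands (0.034) and high for the mean of the mesothelial genes (-0.22). Suprarenal 8 was low for Hoxd11 (-4.90).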

How the results depend on the processing

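Against 193 probes called higher and 69 lower, the replicate block by pool gave 96 and 10, a fit with no variance trend 84 and 27, and RNA input as a covariate 0 and 0. Without region 39 probes were called lower, and with the Npy level in place of the split 12. Leaving out arrays or pools gave 57 to 155 higher and 5 to 58 lower, lowest without pool 12 (57 and 7) and, for lower probes, pool 11 (5). Of the 193, 87 were called again with the block, and of the 69, 6. For the region interaction, 0 probes became 1 with no variance trend and 0 to 2 with arrays or pools left out. Against 56 neural-list genes called, a count added after seeing the data, the number was 35 with the block, 29 with no variance trend, 0 with RNA input and 24 to 48 with arrays or pools left out. Quantile normalization, an offset, leaving out the dimmest probes and averaged probes moved none of these counts by over 1.5 times. No result reversed. Of the values of single genes, 1511 moved by less than the spread between arrays and 37 by more. Of the 37, 21 came with the offset in place of the floor, where 71 stayed. RNA input and averaged probes gave 8 each. For dim probes the floor bounds the difference.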

Other observations

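The largest difference of all belonged to a gene on no list, Vstm2l, which encodes a secreted protein of the nervous system. It read 5.17, 3.49, 2.98 and 3.89 on suprarenal 1, suprarenal 11, infrarenal 8 and infrarenal 12 and -2.21 to 0.87 on the others (4.52 ± 0.59, SE; 23.0-fold), while a dimmer probe differed by 0.51. Of the 135 genes called higher, 79 were on none of the 12 neural lists, among them Avil of the sensory neuron list. Those named next were chosen after their values were seen. Receptor genes among them were Drd2 (2.62), the dopamine D2 receptor, Hcrtr1 (1.82), an orexin receptor, Agtr1a (0.95), the angiotensin II receptor, and Glrb (1.18), a glycine receptor subunit. Membrane transport was represented by Kcnk10 (2.61; -0.47 on another probe), a potassium channel, Asic2 (1.66; 0.38 and -0.05 on other probes), an acid-sensing channel, Slc6a15 (1.99), a neutral amino acid transporter, Slc29a4 (1.60), a monoamine transporter, and Slc10a4 (1.80), found on synaptic vesicles. Pcbd1 (1.34) recycles the cofactor of the aromatic amino acid hydroxylases. With the pool as a block, Drd2, Hcrtr1 and Slc6a15 kept their call, and Agtr1a, Glrb, Kcnk10, Asic2, Slc29a4, Slc10a4 and Pcbd1 lost it. Agtr1a read 2.95 to 3.98 on the Npy-high arrays and 2.15 to 2.84 (median 2.24) on the others.

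Another 38 probes called higher and 11 called lower have no gene name in the table used. Genes called lower on no list included Tgfbr3 (-0.80), a TGF-beta coreceptor, Bmpr1a (-0.44), a BMP receptor, Mcm7 (-0.65), a helicase subunit of DNA replication, and the RNA-binding proteins Hnrnpu (-0.56), Hnrnpk (-0.44) and Ewsr1 (-0.71). All 6 lost their call with the block.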
